A study of Mus musculus with 19 samples.

Results

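Left ventricular transcripts were compared between mice at day 3 of daily tamoxifen (3 arrays) and mice at day 2 (4 arrays). These 7 of the 19 bead arrays of the series were taken by their titles alone, so no measured value entered the choice. All mice, untreated controls included, were male MerCreMer animals on a C57Bl6/J background, 12 to 20 weeks old. In MerCreMer mice a myosin heavy chain promoter of the heart drives a fusion of Cre recombinase with mutated estrogen receptor domains, and tamoxifen brings the fusion into the nucleus of cardiomyocytes. Tamoxifen free base in peanut oil was injected intraperitoneally at 1 mg, or 40 mg/kg, a day, for 3 days in the day 3 mice and for 2 days in the day 2 mice. The other arrays are used for levels only: control (5 arrays, no tamoxifen), day 10 (3 arrays, 5 days of tamoxifen and 5 further days) and day 28 (4 arrays, 5 days of tamoxifen and 23 further days). The groups include neither vehicle injections nor tamoxifen in mice lacking the transgene, and the length of treatment cannot be told apart from the number of injections. The design text places the deepest dysfunction of this transient cardiomyopathy at day 10, so the comparison covers a step on the way into it.

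A ventricle under acute stress is known to switch on immediate early genes, which encode transcription factors that need no new protein for their own induction, together with heat shock proteins that refold damaged proteins. Injured myocardium also makes cytokines, chemokines and a provisional matrix. At the same time cardiomyocytes lower transcripts of the adult contractile, ion-handling and oxidative programme.

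Levels are log2 intensities after background correction, and a difference of 1 on this scale is a doubling. A gene was called at an adjusted p under 0.05 in limma, with the spread estimated over all 19 arrays. Between day 3 and day 2, 3612 of 19272 probes were called (18.7%), 1685 higher (8.74%) and 1927 lower (10.0%). Counted by gene, with 1 probe each, 2587 of 12938 were called (20.0%). Of these, 1203 were higher at day 3 (9.30%) and 1384 lower (10.7%), and the median change over all genes was -0.02. Every day 3 array lay above every day 2 array in 933 of the 1203 higher genes, a pattern that held in 10.7% of all genes tested. Every day 3 array lay below every day 2 array in 1190 of the 1384 lower genes, against 13.7% of all genes. The larger changes were mostly rises: 313 genes were called and at least 2-fold higher (2.42%), 207 at least 2-fold lower (1.60%), and 42 against 8 passed 4-fold. Day 3 and day 2 also share the control arrays as their baseline: 3873 genes differed between day 3 and control (29.9%) and 912 between day 2 and control (7.05%).

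The arrays within a day were not alike, which bears on many results below. On the first principal component of all 19 arrays, day 3 replicates 1 to 3 scored 4.24, 40.2 and 16.6, and day 2 replicates 1 to 4 scored -21.6, -21.7, -6.91 and -19.5. Day 2 replicate 3 therefore stood nearest to the day 3 arrays, and day 3 replicate 2 farthest from day 2. Measured along the distance between the mean of the other 3 day 2 arrays and the day 3 mean, day 2 replicate 3 had covered a median of 28.6% in the genes called higher and 30.4% in those called lower. Without day 3 replicate 2 the probes called dropped to 2241, against 3612 with all arrays. The controls split as well. On the second principal component controls 1 to 3 scored 1.59, 2.58 and 4.38, and controls 4 and 5 scored 20.5 and 20.1, beside the day 28 arrays (21.1 to 23.1). Control means in this text take in both parts, and what sets controls 4 and 5 apart was not tested. The labels give no slide or date, so a batch could not be tested.

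**Figure D1:**
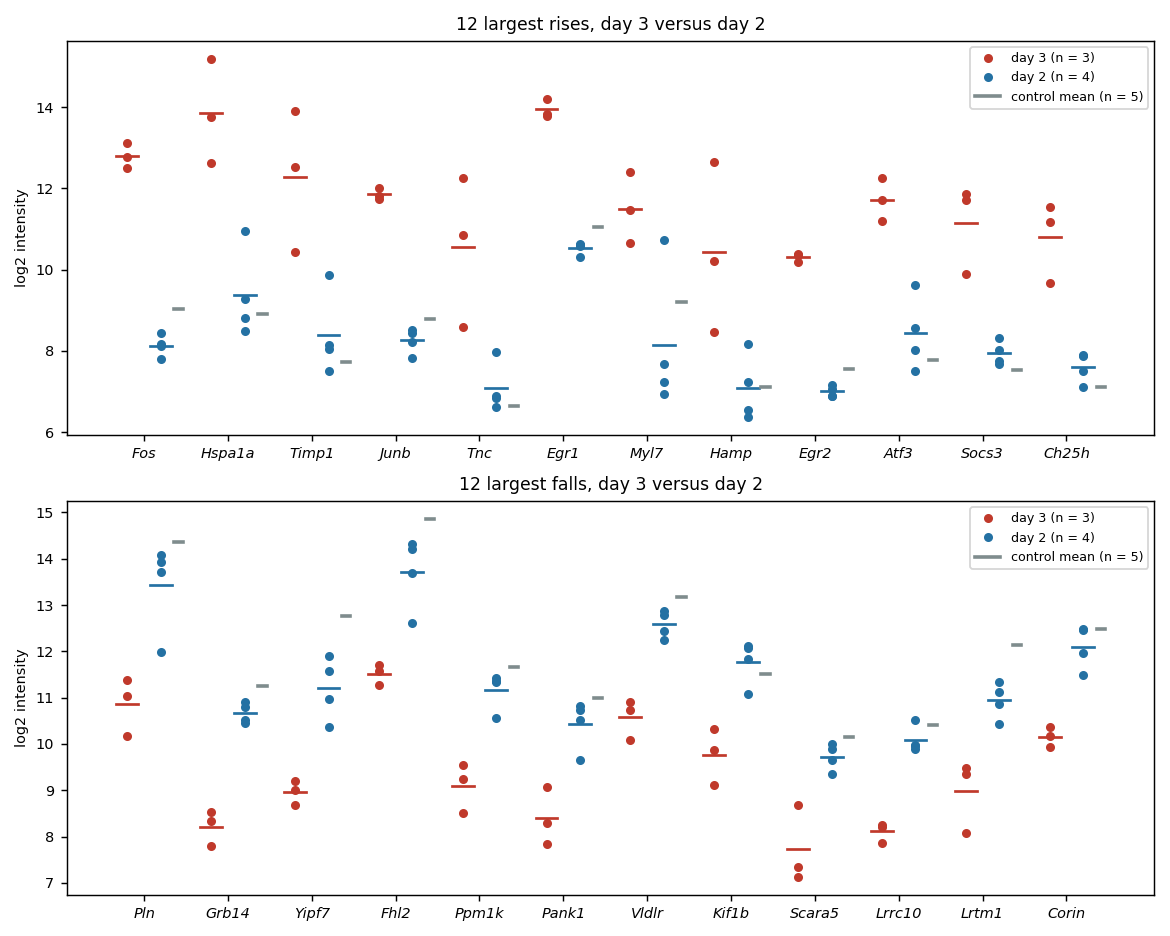
Log2 intensity of the 12 genes with the largest rises (top) and the 12 with the largest falls (bottom) in each day 3 array (red, left) and each day 2 array (blue, right), with bars at the group means and a grey bar at the control mean. In all of these genes but Myl7 the day 3 and day 2 arrays do not overlap.

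Of the 12 largest rises, 5 were those of immediate early and AP-1 transcription factors (Fos, Junb, Egr1, Egr2 and Atf3). Fos, a subunit of the AP-1 transcription factor, measured 12.77, 12.50 and 13.13 in the day 3 arrays, against 8.43, 8.17, 8.12 and 7.80 in the day 2 arrays. It thus stood 25.5-fold higher at day 3 (log2 change 4.67 ± 0.46 SE, adjusted p = 2.97e-07), with a gap of several doublings between the groups. Junb, another AP-1 subunit, reached 11.73, 11.82 and 12.02 at day 3, against 8.22, 8.45, 8.52 and 7.83 at day 2 (3.60 ± 0.38, adjusted p = 5.74e-07). Egr1, a zinc finger factor of the same early response, showed 13.83, 13.80 and 14.21 at day 3, against 10.57, 10.31, 10.60 and 10.63 at day 2 (3.42 ± 0.47, adjusted p = 1.44e-05). In these genes the replicates of each day lay close together and the 2 days far apart, and day 2 replicate 3 sat with the other day 2 arrays. Egr2 rose by 3.31 ± 0.46 (adjusted p = 1.71e-05) and Fosb by 2.57 ± 0.38 (adjusted p = 3.32e-05).

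Of the 13 AP-1 factors tested (of 14 listed), 9 rose and 0 fell, with a median change of 0.80. Atf3, a stress-induced member of the wider AP-1 group, measured 11.19, 11.70 and 12.27 at day 3, against 8.02, 7.51, 9.62 and 8.56 at day 2 (3.29 ± 0.41, adjusted p = 4.34e-06). Unlike Fos, Atf3 was already highest in replicate 3 among the day 2 arrays. Among 19 other immediate early genes tested (of 22 listed), 10 rose and 1 fell, with a median of 0.86. Zfp36, whose protein speeds the decay of cytokine mRNAs, rose by 1.69 ± 0.28 (adjusted p = 0.000121), and Ier3 by 1.65 ± 0.24 (adjusted p = 3.51e-05). Rgs2, a brake on G protein signalling, was the member that fell (-0.52 ± 0.16, adjusted p = 0.0203). That call was lost without day 3 replicate 2 (adjusted p = 0.075), day 3 replicate 3 (0.0512) or day 2 replicate 1 (0.0728).

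In the rest of the series Fos, Junb, Egr1 and Egr2 were high in control 4 and at both later times. Fos stood at 8.03, 8.67, 8.62, 11.45 and 8.41 in controls 1 to 5, so control 4 was high although untreated. At day 10 Fos measured 12.79, 13.08 and 12.62, and at day 28 it ranged from 12.23 to 12.86, both as high as at day 3. Egr1 likewise had 13.59 in control 4 against 10.14 to 10.69 in the other controls, and group means of 13.80 at day 10 and 14.50 at day 28. Atf3 was not high in control 4, where it had 7.88, within the 6.40 to 8.63 of the other controls. Its means of 8.76 at day 10 and 9.43 at day 28 were above its control mean of 7.77 but below its day 3 mean of 11.72. What sets the level of these genes in control 4 and at the late times was not tested, and the same holds for its part in the rise between day 2 and day 3.

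**Figure D2:**
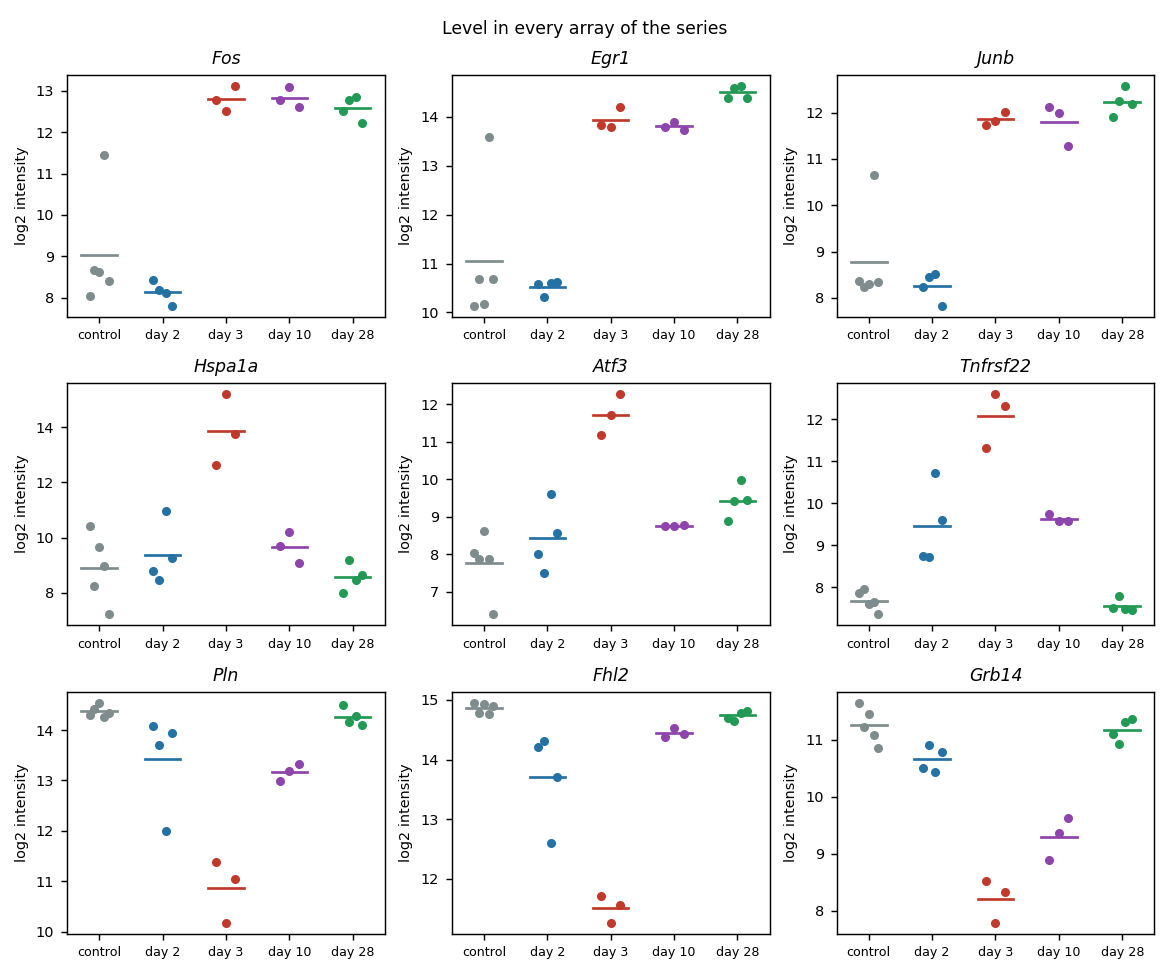
Log2 intensity of 9 genes in all 19 arrays, running left to right with time after the control arrays, with bars at the group means. Fos, Egr1 and Junb are high in control 4 and in every array from day 3 on, Hspa1a, Atf3 and Tnfrsf22 are highest at day 3, and Pln, Fhl2 and Grb14 are lowest at day 3.

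The 250 bases before the start of Fos are shown because it changed most, those of Hspa1a because it is the classic heat shock gene and changed next most, and those of Cxcl1 because it was among the chemokines that rose. Capitals mark matches to motifs searched on both strands. Those found were the TATA box TATAAA, the heat shock element as GAANNTTC or TTCNNGAA, and the NF-kB site as GGGA, any 4 bases and CC. The AP-1 site, the cyclic AMP element, the estrogen-related receptor element and the CArG box, described below, were searched too and had no exact match in these stretches. A near match, or a site farther upstream, would not be marked, so their absence here does not show that a gene lacks them. The sequences are from RefSeq on build GRCm38.p6 and run 5′ to 3′ along the gene. Fos lies on the plus strand at chr12:85473640-85473889, Hspa1a on the minus strand at chr17:34972157-34972406, and Cxcl1 on the plus strand at chr5:90890995-90891244.
Fos: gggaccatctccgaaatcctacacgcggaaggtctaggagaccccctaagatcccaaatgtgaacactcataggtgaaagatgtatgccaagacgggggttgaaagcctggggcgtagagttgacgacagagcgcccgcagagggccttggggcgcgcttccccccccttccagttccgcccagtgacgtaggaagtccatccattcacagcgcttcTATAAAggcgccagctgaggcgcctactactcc
Hspa1a: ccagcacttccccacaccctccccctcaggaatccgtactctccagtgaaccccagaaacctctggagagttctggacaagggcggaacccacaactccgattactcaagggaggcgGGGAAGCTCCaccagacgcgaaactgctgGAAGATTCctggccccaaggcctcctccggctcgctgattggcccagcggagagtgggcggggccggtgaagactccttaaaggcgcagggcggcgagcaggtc
Cxcl1: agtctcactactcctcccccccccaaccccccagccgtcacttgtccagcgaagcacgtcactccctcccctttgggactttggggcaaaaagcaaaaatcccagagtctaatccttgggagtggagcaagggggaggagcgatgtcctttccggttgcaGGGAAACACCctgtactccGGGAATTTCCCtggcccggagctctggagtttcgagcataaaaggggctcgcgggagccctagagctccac
In Fos the TATA box lay 33 to 28 bases before the start. In Hspa1a the heat shock element lay 104 to 97 bases before the start and 1 NF-kB match lay 133 to 124 bases before it. Cxcl1 held NF-kB matches at 90 to 81 and 71 to 62 bases before the start, and a further one on the other strand, at 70 to 61 bases, overlapped the nearer match.

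Such matches are common in any promoter. Over 10404 tested genes with a listed promoter, 24.8% held an NF-kB match, against 29.1% of the 234 promoters of genes called at least 2-fold higher. That match was in 26.3% of the 940 promoters of all higher genes and in 26% of the 1127 of lower genes. The heat shock element was in 15.8% of the 234 and in 12.4% of all tested, but in 11.5% of higher and 11.6% of lower genes. The AP-1 site TGANTCA was in 8.12% of the 234, 7.66% of higher genes, 4.08% of lower genes and 6.26% of all tested. The cyclic AMP element TGACGTCA, bound by CREB and ATF proteins, was in 7.26% of the 234, in 4.57% of the 940 promoters of all higher genes, in 4.17% of the 1127 promoters of lower genes and in 2.65% of all tested. The TATA box was in 12.8% of the 234, 10% of higher genes, 6.12% of lower genes and 10.2% of all tested. The estrogen-related receptor element TCAAGGTCA was in 0.427% of the 234 (1 promoter) and 0.231% of all tested. The CArG box, the site of serum response factor, was in 2.14% of the 234 (5 promoters) and 1.48% of all tested. Its share was 1.6% in higher and 1.69% in lower genes. These shares are over the 250 bases before and 50 after each start and are descriptions without a test.

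Heat shock genes split. Hspa1a, the inducible Hsp70 chaperone, measured 12.63, 15.20 and 13.75 at day 3, against 8.80, 8.48, 10.95 and 9.27 at day 2 (22.4-fold, log2 change 4.49 ± 0.61, adjusted p = 1.22e-05). Day 3 replicate 1 was the lowest of its group and day 2 replicate 3 the highest of its own, and the groups did not overlap. The fold was 34.3 without day 3 replicate 1 and 14.1 without day 3 replicate 2. A near-identical copy, Hspa1b, can share the signal of this probe and had no tested probe of its own. Its partner Dnajb1, an Hsp40 co-chaperone, rose by 1.92 ± 0.23 (adjusted p = 3.62e-06) and the relatives Hspa1l and Hspa2 by 1.65 ± 0.22 and 1.46 ± 0.16.

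Over the whole heat shock list, 7 of 29 tested members rose and 5 fell, with a median of 0.05. Without day 3 replicate 2 or day 2 replicate 4 the falls numbered 3 each. Among those that fell was Hspd1, the mitochondrial Hsp60 chaperone (13.05, 13.12 and 13.08 at day 3, 13.64, 13.44, 13.35 and 13.89 at day 2, change -0.50 ± 0.14, adjusted p = 0.0135), a call that was lost without day 2 replicate 4 (adjusted p = 0.0554) and with the 7 arrays alone. Hspd1 was called in 1 of its 2 probes. Hspa1a averaged 9.65 at day 10 and 8.58 at day 28, against a control mean of 8.91.

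In the integrated stress response the factor Atf4 raises amino acid supply. Atf4 itself rose by 1.36 ± 0.20 (adjusted p = 4.23e-05), and Chac1, a glutathione-degrading enzyme and Atf4 target, by 1.98 ± 0.31 (adjusted p = 7.67e-05). Chac1 measured 10.73, 11.59 and 11.16 at day 3, against 9.51, 8.82, 9.97 and 8.43 at day 2, with no overlap. Of 32 tested Atf4 targets and tRNA synthetases, 12 rose, among them Aars (1.08 ± 0.16) and Sesn2 (1.13 ± 0.17), and 2 fell (median 0.22). The 12 became 6 without day 3 replicate 2. In the list of the endoplasmic reticulum response, 2 of 18 rose and 2 fell, 11.1% each way and near the 9.30% and 10.7% over all genes. The rises numbered 0 without day 3 replicate 1 or 3 or day 2 replicate 1. Herpud1, which serves in the disposal of misfolded proteins, was lower in every day 3 array (13.11, 12.49 and 12.80) than in any day 2 array (14.45, 13.86, 14.06 and 14.73), with a change of -1.48 ± 0.18 (adjusted p = 4.67e-06).

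Cdkn1a, the p53-responsive cell cycle inhibitor p21, measured 12.73, 14.12 and 13.53 at day 3, against 11.47, 10.92, 11.96 and 10.43 at day 2 (2.26 ± 0.38, adjusted p = 0.000156). The 3 Gadd45 genes, growth arrest genes induced by stress, were headed by Gadd45g at 12.75, 12.82 and 13.26 at day 3, against 11.36, 11.17, 11.10 and 10.26 at day 2 (1.97 ± 0.23, adjusted p = 2.47e-06). Bbc3, the pro-apoptotic protein Puma, rose by 1.52 ± 0.18 (adjusted p = 3.03e-06), although 1 of its 3 probes was called. Within the p53 list of 30 tested members, 11 rose and 4 fell (median 0.13). Sesn1, a p53 target that restrains growth signalling, was among those that fell. It measured 10.62, 9.45 and 9.97 at day 3 and 11.98, 11.99, 10.91 and 12.13 at day 2 (-1.74 ± 0.24, adjusted p = 1.45e-05). Ccng1, another p53 target, was lower as well (-0.89 ± 0.13). The Bcl2 family had 4 rises and 2 falls among 16 (25% and 12.5%, against 9.30% and 10.7% over all genes). Leaving out single arrays other than day 3 replicate 1 or day 2 replicate 3 brought the rises to 1 or 2.

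Chemokines that draw in monocytes and neutrophils were higher in all 3 day 3 arrays. Ccl2, the main monocyte attractant, stood at 9.08, 10.62 and 10.12 at day 3, against 6.88, 6.58, 6.88 and 7.03 at day 2 (8.6-fold, 3.10 ± 0.32, adjusted p = 5.19e-07). Ccl7, a related attractant, showed 10.35, 11.82 and 11.46 at day 3, against 8.31, 7.79, 8.22 and 8.24 at day 2 (3.07 ± 0.52, adjusted p = 0.000145). Cxcl1, a neutrophil attractant, had 9.37, 11.15 and 11.13 at day 3, against 7.87, 7.39, 7.47 and 7.33 at day 2 (3.04 ± 0.59, adjusted p = 0.000622). In all 3 genes day 3 replicate 1 was the lowest of its group, and without it the fold of Cxcl1 was 12.3. Cxcl1 averaged 12.24 at day 10 and 13.49 at day 28. Among the controls it was high in control 4, with 11.14 against 7.58 to 8.17 in the other 4, as was Ccl7 with 10.32 against 6.95 to 8.19. Over the whole chemokine list the mean level was 8.38 and 7.85 in controls 4 and 5, against 7.32 to 7.49 in controls 1 to 3. Control 4 is also the control in which Fos and Egr1 were high, and the part of what sets it apart in the chemokine rises was not tested.

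Among 27 chemokines and receptors tested, 7 rose and 0 fell (median 0.43). Of 20 NF-kB subunits, feedback genes and adhesion targets, 6 rose and 0 fell (median 0.48), led by the NF-kB cofactor Nfkbiz (2.02 ± 0.37, adjusted p = 0.000381; 9.41 in control 4 against 7.47 to 7.89 in the other controls) and the endothelial adhesion gene Selp (1.60 ± 0.31, adjusted p = 0.000546). Selp was uneven at day 3, with 7.13, 9.41 and 8.45, against 6.57 to 6.81 at day 2, and its fold was 4.6 without day 3 replicate 1. Socs3, the feedback inhibitor of gp130 signalling, stood at 9.90, 11.85 and 11.72 at day 3, against 8.03, 7.75, 8.31 and 7.67 at day 2 (3.22 ± 0.34, adjusted p = 6.06e-07). Its fold was 14.4 without day 3 replicate 1. The IL-6 family list had 6 rises and 2 falls among 18, and 2 rises without day 3 replicate 2. Among interferon-stimulated genes 2 of 22 rose (9.09%, near the 9.30% over all genes) and 0 fell (median 0.19), with 1 rise without day 3 replicate 1. In the interleukin-1 family and inflammasome 1 of 12 rose (8.33%, near the 9.30% over all genes), the adaptor Myd88 (1.20 ± 0.16). In that list 5 were called without day 3 replicate 1.

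TNF receptors are the cell surface proteins through which TNF relatives act. Tnfrsf22, a decoy receptor in the mouse, measured 11.31, 12.60 and 12.32 at day 3, against 8.75, 8.72, 10.73 and 9.61 at day 2 (2.63 ± 0.33, adjusted p = 4.48e-06), and averaged 7.68 in controls. Tnfrsf12a, the receptor of the cytokine Tweak, had 12.89, 13.31 and 13.63 at day 3 and 11.18, 10.08, 12.49 and 11.05 at day 2 (2.08 ± 0.38, adjusted p = 0.000363). Both were highest in replicate 3 among the day 2 arrays. Of 17 TNF receptors tested, 5 rose and 0 fell (median 0.30).

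Genes of matrix turnover and provisional matrix were among the largest rises. Timp1, an inhibitor of matrix proteases, measured 10.44, 13.90 and 12.53 at day 3, against 8.15, 8.03, 9.86 and 7.49 at day 2 (3.90 ± 0.50, adjusted p = 6.36e-06). Tnc, the matrix glycoprotein tenascin C of healing tissue, had 8.59, 12.25 and 10.87 at day 3, against 6.84, 6.90, 7.98 and 6.62 at day 2 (3.48 ± 0.47, adjusted p = 1.21e-05). In both, day 3 replicate 2 was highest, replicate 1 lowest, and day 2 replicate 3 the highest of its group. Without day 3 replicate 1 and without day 3 replicate 2 the folds were 28.4 and 8.57 for Timp1 and 22.2 and 6.25 for Tnc. At day 10 Timp1 averaged 14.28 and Tnc 11.72, above their day 3 means.

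Of 21 matricellular and provisional matrix genes tested (of 28 listed), 11 rose and 2 fell, with a median of 0.57. Thbs1, the adhesive glycoprotein thrombospondin, rose by 2.36 ± 0.23 (adjusted p = 1.93e-07), Lgals3, the lectin galectin 3, by 2.84 ± 0.33 (adjusted p = 2.42e-06), and Ccn1 by 1.96 ± 0.28 (adjusted p = 2.69e-05). Col1a1, the main fibrillar collagen chain, was not called (9.49, 10.43 and 9.57 at day 3, 9.01, 9.48, 9.90 and 9.20 at day 2, change 0.43 ± 0.25, adjusted p = 0.267). The collagen list had 7 rises and 1 fall among 25, and its rises became 0 without day 3 replicate 2, 3 without day 3 replicate 3 or day 2 replicate 2, 4 without day 2 replicate 1 or 4, and 11 without day 2 replicate 3. Lox, the collagen cross-linking enzyme, was among them and was lost without day 3 replicate 2 (adjusted p = 0.165), with trended and robust variances and with the 7 arrays alone.

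**Figure D3:**
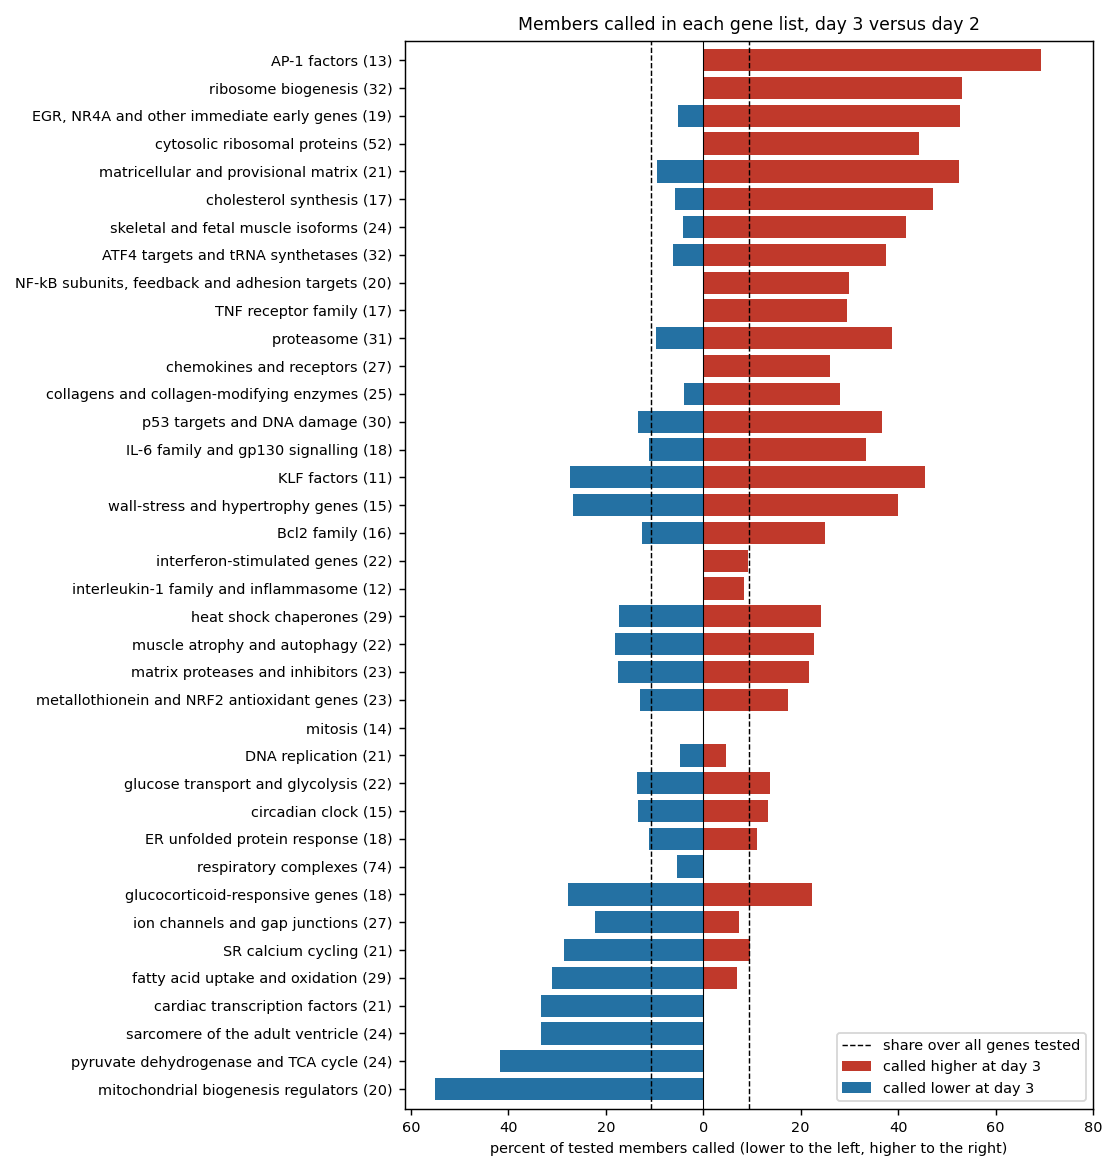
Percent of the tested members of each of 38 gene lists called higher (red, right) or lower (blue, left) at day 3 than at day 2, with the number of members tested in brackets and dashed lines at the shares over all genes tested, 9.30% and 10.7%. AP-1 factors, ribosome biogenesis and immediate early genes have the largest shares higher, and regulators of mitochondrial biogenesis the largest share lower.

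The largest fall was that of Pln, phospholamban, the brake on the calcium pump of the sarcoplasmic reticulum. It measured 11.39, 10.18 and 11.03 at day 3, against 14.09, 13.71, 11.99 and 13.94 at day 2 (-2.57 ± 0.32, adjusted p = 5.41e-06). Day 2 replicate 3 lay between the other day 2 arrays and day 3. In bulk tissue, fewer cells of a type and less RNA per cell cannot be told apart. The pump itself, Atp2a2, was not called (15.63, 15.36 and 15.60 at day 3, 15.78, 15.78, 15.55 and 15.78 at day 2, change -0.19 ± 0.12, adjusted p = 0.287), and its level is near the top of the scale, where differences are compressed.

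Other calcium handling genes that fell were Asph (-1.76 ± 0.20, adjusted p = 1.99e-06, called in 3 of 13 probes), whose locus also encodes the calcium store protein junctin, and Slc8a1, the sodium-calcium exchanger. Slc8a1 measured 9.49, 9.79 and 9.90 at day 3, against 11.53, 11.46, 10.88 and 11.15 at day 2 (-1.53 ± 0.20, adjusted p = 9.65e-06), and averaged 12.47 in controls and 12.57 at day 10. The list of 21 had 6 falls and 2 rises (median -0.04). Among 27 ion channel and gap junction genes, 6 fell and 2 rose (median -0.16). Fgf13, a regulator of cardiac sodium channels, fell by 1.86 ± 0.17 (adjusted p = 9.02e-08), with 8.37, 7.98 and 8.07 at day 3 and 10.19, 10.31, 9.56 and 9.94 at day 2. Kcnk3, a background potassium channel, changed by -1.72 ± 0.24 and Kcne1, a subunit of a delayed rectifier channel, by 1.25 ± 0.22 (adjusted p = 1.44e-05 and 0.000222). Kcne1 was called in 1 of its 4 probes.

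In the sarcomere of the adult ventricle 8 of 24 genes fell and 0 rose (median -0.32), with 4 falls without day 3 replicate 2 and 5 without day 2 replicate 4. Mylk3, the cardiac myosin light chain kinase, had 10.76, 8.87 and 10.17 at day 3, against 11.41, 11.81, 10.84 and 12.08 at day 2 (-1.60 ± 0.31, adjusted p = 0.000712). Pdlim5, a Z-disc protein, fell by 1.46 ± 0.21 (adjusted p = 3.09e-05) and Csrp3, the muscle LIM protein, by 0.84 ± 0.13 (adjusted p = 8.53e-05). Myh6, the adult mouse myosin heavy chain, was not called by its brighter probe, although 1 of its 2 probes was called lower. It had 15.46, 15.16 and 15.20 at day 3, against 15.55, 15.64, 15.58 and 15.55 at day 2 (-0.30 ± 0.16, adjusted p = 0.229), close to the top of the scale, and it was called with array weights.

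Fhl2, a LIM protein of the Z-disc and nucleus, measured 11.71, 11.27 and 11.57 at day 3, against 14.20, 14.31, 12.60 and 13.70 at day 2 (-2.19 ± 0.24, adjusted p = 1.24e-06). It averaged 14.86 in controls and 14.45 at day 10, and its 4 day 2 arrays lay between the day 3 arrays and the controls (14.76 to 14.96), replicate 3 lowest. Lrrc10, a cardiomyocyte leucine-rich repeat protein, had 8.25, 7.87 and 8.21 at day 3, against 9.98, 10.52, 9.90 and 9.95 at day 2 (-1.98 ± 0.16, adjusted p = 3.84e-08), and 9.89 on average at day 10. Corin, the protease that activates natriuretic peptides, changed by -1.95 ± 0.23 (adjusted p = 3.36e-06). Its substrates Nppa and Nppb, the natriuretic peptide genes of the stressed ventricle, were not called (0.52 ± 0.40, adjusted p = 0.428, and 0.60 ± 0.25, adjusted p = 0.109). Nppb was called without day 2 replicate 3 (adjusted p = 0.0471) and with array weights.

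Grb14, an adaptor that restrains insulin receptor signalling, measured 8.52, 7.79 and 8.33 at day 3, against 10.51, 10.91, 10.44 and 10.79 at day 2 (-2.45 ± 0.20, adjusted p = 3.84e-08), with day 2 replicate 3 beside the others. Vldlr, a receptor for triglyceride-rich lipoproteins, fell by 2.01 ± 0.21 (adjusted p = 6.86e-07), Pank1, an enzyme of coenzyme A synthesis, by 2.03 ± 0.26 (adjusted p = 6.35e-06, 1 of 2 probes), and Ppm1k, the phosphatase that activates branched-chain amino acid breakdown, by 2.07 ± 0.20 (adjusted p = 1.93e-07). Yipf7 (-2.24 ± 0.26), Lrtm1 (-1.97 ± 0.26), the ferritin receptor Scara5 (-2.00 ± 0.27) and the motor protein Kif1b (-2.01 ± 0.23) complete the 12 largest falls, with adjusted p between 1.79e-06 and 1.26e-05.

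Genes set apart as wall-stress and hypertrophy genes moved in both directions, 6 higher and 4 lower of 15 (median 0.56). Xirp1, an actin-binding protein of stretched muscle, rose by 1.88 ± 0.31 (adjusted p = 0.000129), and Ankrd2, a stretch-responsive ankyrin repeat protein, by 3.14 ± 0.58 (adjusted p = 0.00042). Ankrd2 was uneven, with 8.27, 12.20 and 10.09 at day 3 and 6.26, 6.43, 8.97 and 6.53 at day 2, so that its groups overlapped through day 2 replicate 3. Its fold was 13.8 without that array, 17.1 without day 3 replicate 1 and 4.39 without day 3 replicate 2. Its cardiac relative Ankrd1 was lower (-0.76 ± 0.17, adjusted p = 0.0028).

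A list of skeletal and fetal muscle isoforms, most of which the adult ventricle holds at low levels, had 10 rises and 1 fall of 24 (median 0.37). It includes the atrial and fetal light chain Myl4 among the rises and smooth muscle actin as the fall. Tnnt1, slow skeletal troponin T, had 14.43, 13.54 and 13.71 at day 3, against 11.71, 11.78, 12.74 and 13.11 at day 2 (1.56 ± 0.29, adjusted p = 0.000353). Ryr1, the skeletal calcium release channel, had 9.08, 8.88 and 8.59 at day 3, against 7.27, 7.26, 7.37 and 7.40 at day 2 (1.53 ± 0.14, adjusted p = 9.02e-08), and 6.38 on average in controls. Tnnt3, fast skeletal troponin T, rose by 1.85 ± 0.28 (adjusted p = 3.87e-05). Acta1, skeletal actin, was higher in each day 3 array than in any of day 2 (14.99, 14.96 and 15.14 against 14.36, 14.80, 14.67 and 14.17) but was not called (0.53 ± 0.42, adjusted p = 0.453). Acta2, smooth muscle actin, fell (-1.10 ± 0.28, adjusted p = 0.00684), a call lost without day 3 replicate 1 (adjusted p = 0.0562).

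Cardiac transcription factors had 7 falls and 0 rises among 21 (median -0.45). They included Rxrg (-1.31 ± 0.22, adjusted p = 0.000111), a retinoid receptor, Esrrb (-0.94 ± 0.16, adjusted p = 0.000168), an estrogen-related receptor, and Gata4 (-0.68 ± 0.17, adjusted p = 0.00608), a core factor of heart development. Gata4 measured 7.16, 6.99 and 7.06 at day 3, against 7.67, 8.03, 7.56 and 7.74 at day 2, a small shift without overlap. With array weights the falls numbered 11.

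Regulators of mitochondrial biogenesis had the highest share of falls of any list, 11 of 20 with 0 rises (median -0.56), and 6 falls without day 3 replicate 2. Tfb1m, a mitochondrial ribosomal RNA methyltransferase, measured 7.22, 6.72 and 6.53 at day 3, against 8.08, 8.39, 7.75 and 8.04 at day 2 (-1.24 ± 0.17, adjusted p = 1.15e-05). Mfn1, which fuses mitochondria, had 12.23, 11.43 and 11.79 at day 3, against 12.87, 13.07, 12.69 and 13.08 at day 2 (-1.11 ± 0.17, adjusted p = 6.05e-05). Both genes were lower in every day 3 array.

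Ppargc1a, the coactivator that drives this programme, had 8.18, 7.54 and 7.74 at day 3, against 9.11, 9.81, 8.27 and 9.25 at day 2, and 11.33 on average in controls. Most of its distance from control was therefore present at day 2. The step between the days was -1.29 ± 0.42 (adjusted p = 0.0315). It was not called without background correction, with trended and robust variances, or without day 2 replicate 1 (adjusted p = 0.0608), 2 (0.114) or 4 (0.0689) or day 3 replicate 2 (0.124) or 3 (0.0913).

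Of 24 genes of pyruvate dehydrogenase and the TCA cycle, 10 fell and 0 rose (median -0.43), with Idh3b (-0.61 ± 0.12, adjusted p = 0.000781) and Mdh1 (-0.74 ± 0.18, adjusted p = 0.00394) among them. Leaving out single arrays gave 4 falls (without day 3 replicate 2 or day 2 replicate 4), 6 (without day 3 replicate 3 or day 2 replicate 1) or 16 (without day 2 replicate 3). In fatty acid uptake and oxidation 9 of 29 fell and 2 rose (median -0.30), with 2 falls without day 3 replicate 2, 5 without day 2 replicate 1 and 3 when the 7 arrays were fitted alone. Hadhb, a subunit of the trifunctional enzyme of beta-oxidation, had 14.08, 13.71 and 13.86 at day 3, against 14.58, 14.54, 14.20 and 14.76 at day 2 (-0.64 ± 0.14, adjusted p = 0.00156).

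In the respiratory complexes 4 of 74 subunits fell and 0 rose (median -0.04), and the falls numbered 1 without day 3 replicate 2, 2 without day 2 replicate 1 or 2 and 7 without day 2 replicate 4. Their share called was below the 10.7% over all genes. Sdhd, of complex II, had the lowest adjusted p (-1.12 ± 0.21, adjusted p = 0.000502), at 10.33, 10.04 and 10.41 in day 3 arrays and 11.40, 11.12, 10.96 and 12.05 in day 2 arrays. Glycolysis and glucose transport had 3 rises and 3 falls of 22 (13.6% each way, against 9.30% and 10.7% over all genes), and 1 rise without day 3 replicate 2 or 3. Pfkfb4 and Pfkfb2, which encode forms of the enzyme that sets fructose 2,6-bisphosphate, went opposite ways. Pfkfb4 measured 9.83, 10.73 and 9.93 at day 3, against 7.54, 7.76, 7.77 and 7.68 at day 2 (2.48 ± 0.21, adjusted p = 4.79e-08, called in 1 of 2 probes). Pfkfb2, the heart form, had 9.89, 8.21 and 8.63 at day 3, against 10.76, 10.88, 9.99 and 10.88 at day 2 (-1.72 ± 0.29, adjusted p = 0.000123, also 1 of 2 probes).

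Ribosome genes were described in 2 lists, the factors that build ribosomes and the ribosomal proteins. Rrp12, an export factor of ribosomal subunits, measured 12.19, 12.70 and 12.65 at day 3, against 10.55, 10.86, 11.63 and 10.30 at day 2 (1.68 ± 0.23, adjusted p = 1.57e-05). Gnl3, the nucleolar protein nucleostemin, rose by 1.54 ± 0.22 (adjusted p = 2.32e-05) and Nop58, of the snoRNA complex, by 1.31 ± 0.14 (adjusted p = 8.76e-07). Of 32 ribosome biogenesis genes, 17 rose and 0 fell (median 0.51), with 8 rises without day 3 replicate 2. Cytosolic ribosomal proteins had 23 rises and 0 falls among 52 (median 0.48), a count that depended on the arrays: 4 without day 3 replicate 2, 11 without day 3 replicate 3, 9 without day 2 replicate 4 and 2 with the 7 arrays fitted alone. Many ribosomal protein genes have near-identical pseudogenes, so single members are uncertain.

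Cholesterol synthesis had 8 rises and 1 fall of 17 (median 0.40). Sqle, squalene epoxidase, measured 8.72, 9.26 and 8.34 at day 3, against 7.02, 7.13, 6.96 and 6.65 at day 2 (1.84 ± 0.16, adjusted p = 9.02e-08), and day 2 replicate 3 did not stand out. Hsd17b7, a later enzyme of the pathway, fell (-1.10 ± 0.15, adjusted p = 8.67e-06). In the proteasome 12 of 31 genes rose and 3 fell (median 0.21). The rises included the regulatory subunits Psmd8 (1.05 ± 0.18) and Psmd7 (0.94 ± 0.13), and the deepest fall was that of Psme4, an activator cap of another kind (-1.47 ± 0.15, adjusted p = 3.93e-07, 1 of 2 probes).

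Antioxidant genes under the factor Nrf2 split, with 4 rises and 3 falls of 23, and 1 fall without day 3 replicate 2. Srxn1, sulfiredoxin, had 11.15, 10.50 and 11.06 at day 3, against 9.04, 9.52, 9.27 and 9.05 at day 2 (1.68 ± 0.19, adjusted p = 1.72e-06). Hmox1, heme oxygenase, was low in day 3 replicate 2 alone, with 10.51, 8.02 and 10.56 at day 3, against 7.62, 7.38, 8.86 and 7.09 at day 2 (1.96 ± 0.42, adjusted p = 0.00176), and its fold was 6.96 without that array. Cat, catalase, fell (-0.90 ± 0.20, adjusted p = 0.00208).

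KLF factors, a family of zinc finger regulators, had 5 rises and 3 falls of 11. Klf4 rose by 1.04 ± 0.21 (adjusted p = 0.000989) and Klf9 fell by 1.16 ± 0.19 (adjusted p = 0.000112). The rises numbered 2 or 3 without day 3 replicate 2 or 3 or day 2 replicate 1, 2 or 4, and the falls 1 without day 3 replicate 2. Clock genes (2 higher and 2 lower of 15) and glucocorticoid-responsive genes (4 higher and 5 lower of 18) also showed no single direction. For the clock genes each share was 13.3%, against 9.30% higher and 10.7% lower over all genes. In cell division, 1 of 21 DNA replication genes rose and 1 fell, 4.76% each way and below the shares over all genes. In limma 0 of 14 mitosis genes were called, with 1 at an unadjusted p under 0.05. Array weights called 2 mitosis genes, 1 each way, and the 7 arrays fitted alone called 1. Muscle atrophy and autophagy genes had 5 rises and 4 falls of 22. The ubiquitin-like Gabarapl2 rose by 1.01 ± 0.19 (adjusted p = 0.000401). Without day 3 replicate 2 these counts were 3 and 0, without day 3 replicate 3 they were 3 and 1, and the falls were 1 or 2 without day 2 replicate 1, 2 or 4. Matrix proteases and their inhibitors had 5 rises and 4 falls of 23, and 8 rises without day 3 replicate 1. Adamts4, which cleaves proteoglycans, rose by 1.40 ± 0.24 and Adamts5, of the same family, fell by 0.95 ± 0.20 (adjusted p = 0.000207 and 0.00137). Counts of 1 or 2 members in other lists, given above and below, moved to between 0 and 4 when single arrays were left out. The interleukin-1 list, described above, moved further.

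Marker lists of cell types that left ventricular tissue could hold were set beside these changes. The 11 ventricular cardiomyocyte markers tested were bright in every array, with mean levels of 13.56 to 13.80 at day 3 and 13.92 to 14.23 at day 2. Of these 11, 2 fell (Pln and Ttn), and the fall of Ttn was lost without day 2 replicate 1, 2 or 4 or day 3 replicate 2 or 3 (adjusted p between 0.0533 and 0.112). Atrial markers were higher than at day 2: mean levels were 9.04 to 9.49 at day 3 and 8.29 to 8.96 at day 2, and 5 of 12 rose and 1 fell. In the untreated controls the mean level ran from 8.12 to 9.22, so control 2 lay within the day 3 range. Myl7, the atrial light chain, had 11.47, 12.41 and 10.65 at day 3, against 10.73, 6.94, 7.67 and 7.24 at day 2 (3.36 ± 0.88, adjusted p = 0.00847), so that day 2 replicate 1 overlapped day 3. Controls 1 to 5 had 10.12, 11.40, 6.99, 9.53 and 7.96, so control 2 overlapped day 3 too.

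The fold of Myl7 was 18.7 without day 2 replicate 1, and the call was lost without day 3 replicate 2 (adjusted p = 0.0561) and with trended and robust variances. Sln, the atrial calcium pump inhibitor sarcolipin, followed with 11.32, 11.78 and 9.43 at day 3, against 9.46, 6.80, 7.35 and 7.25 at day 2 (3.13 ± 0.71, adjusted p = 0.00258), and its fold was 14.3 without day 3 replicate 3. Among the controls Sln ran from 7.15 to 10.56, which reached above day 3 replicate 3. Myl4, which is both an atrial and a fetal light chain, rose by 2.50 ± 0.67 (adjusted p = 0.00957) and was lost without day 3 replicate 2 (adjusted p = 0.06) and with trended and robust variances. The atrial rises numbered 3 without that array. The part of atrial tissue in these and other changes was not tested.

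Macrophage and monocyte markers had mean levels of 8.85 to 9.50 at day 3 and 8.53 to 8.73 at day 2. Controls 4 and 5 stood at 8.91 and 8.90, above day 3 replicate 1, and controls 1 to 3 at 8.09 to 8.26. Between day 2 and day 3, 7 of 21 rose with 0 falls (median 0.20). The count was 2 without day 3 replicate 2 and 4 without day 2 replicate 1 or 4. Gpnmb, a glycoprotein of macrophages that other stressed cells also make, had 12.24, 12.19 and 11.80 at day 3, against 8.06, 9.11, 11.12 and 9.16 at day 2 (2.72 ± 0.44, adjusted p = 8.46e-05), and a fold of 9.87 without day 2 replicate 3. It was higher at day 3 than its day 10 mean of 10.10. Plac8, a lysosomal protein of myeloid cells, was highest in day 3 replicate 2 (10.44) and lost its call without it (adjusted p = 0.187), with trended and robust variances and with the 7 arrays alone, and its fold was 5.19 without day 3 replicate 1. Lgals3 belongs both to this list and to the matricellular list. The part of monocyte and macrophage RNA in the chemokine and matrix changes above was not tested.

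Neutrophil markers ranged from 6.77 to 7.88 at day 3 and 6.73 to 7.10 at day 2 in mean level. In limma 0 of 12 were called, with 5 at an unadjusted p under 0.05 and 4 called with array weights. Without day 3 replicate 1, 5 were called. No T and NK cell marker (0 of 8) and no Schwann cell marker (0 of 5) was called, with 1 and 0 at an unadjusted p under 0.05, and array weights called 1 Schwann cell marker. Endothelial markers had 1 rise of 16, and fibroblast markers 2 rises and 1 fall of 16. Smooth muscle and pericyte markers had 1 rise and 3 falls of 14 (1 fall without day 3 replicate 2 or day 2 replicate 1), B cell markers 1 rise of 7, adipocyte markers 1 rise and 1 fall of 8 and erythroid markers 1 rise of 4. Over all genes 9.30% rose and 10.7% fell. Krt18 and Krt8, keratins listed as mesothelial markers, rose by 2.52 ± 0.30 and 1.07 ± 0.17 (adjusted p = 2.8e-06 and 7.01e-05). Krt18 measured 9.66, 9.57 and 9.34 at day 3, against 6.32, 6.45, 8.39 and 6.85 at day 2, while the other 3 mesothelial markers tested were not called.

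**Figure D4:**
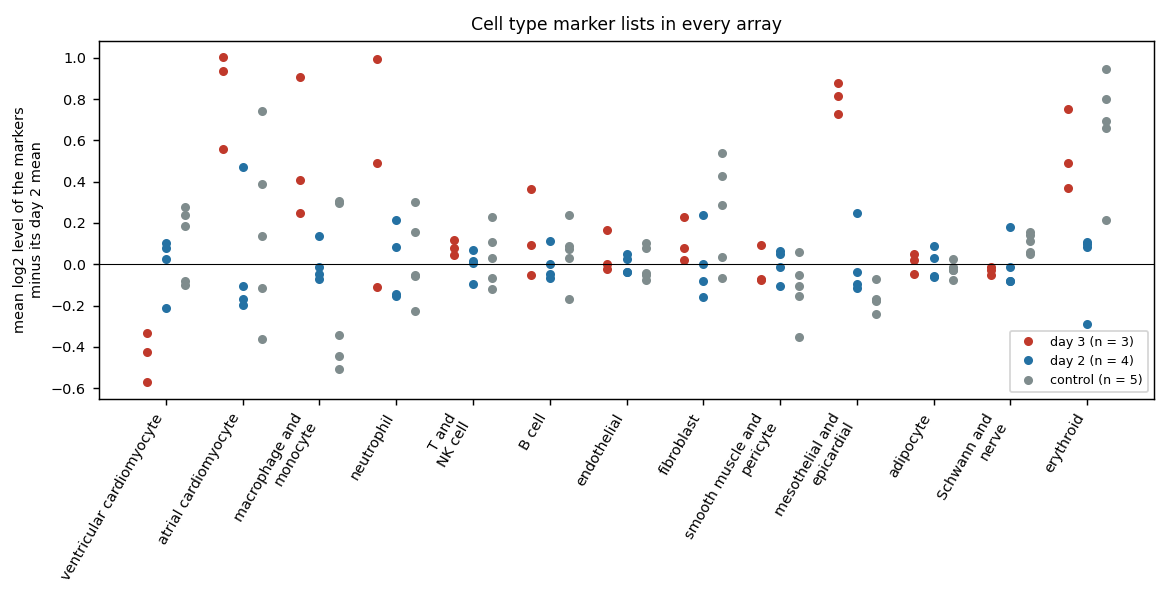
Mean log2 level of the tested members of each cell type marker list, minus its day 2 mean, in every day 3 array (red, left), day 2 array (blue) and control array (grey, right). The ventricular cardiomyocyte list is lower, and the atrial, macrophage, mesothelial and erythroid lists are higher, in all 3 day 3 arrays than in any day 2 array, and the macrophage level is highest in day 3 replicate 2.

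The remaining genes among the 12 largest rises were Hamp, whose peptide hepcidin limits iron export (8.46, 12.66 and 10.20 at day 3, 7.24, 6.54, 8.18 and 6.38 at day 2), and Ch25h, which makes an oxysterol (9.68, 11.55 and 11.17 at day 3, 7.87, 7.10, 7.89 and 7.51 at day 2). Hamp rose by 3.36 ± 0.64 (adjusted p = 0.000559), with a fold of 20.4 without day 3 replicate 1 and 4.76 without day 3 replicate 2. Ch25h rose by 3.21 ± 0.38 (adjusted p = 2.8e-06). Neither gene overlapped between the days. Esr1, the estrogen receptor to which tamoxifen binds, was dim and not called (6.40, 6.49 and 6.89 at day 3, 6.53, 6.81, 6.40 and 6.09 at day 2, change 0.13 ± 0.16, adjusted p = 0.646), and Myh7, the fetal myosin heavy chain, was not called either (0.00 ± 0.40, adjusted p = 0.998).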

How the data were processed

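The authors' deposited values are probe intensities of 25697 probes on Illumina bead arrays, linear and quantile-normalized (all 19 sorted columns were identical, median 191.479). Per the labels' protocols, TRIzol RNA of left ventricle with an integrity number above 9 was amplified. The program used is not given in the sources used here. A second deposited table of unnormalized signals has 38 columns that match no label and was not used. The intensities were corrected with limma 3.58.1 (normexp, offset 50, R 4.3.3), put on a log2 scale and filtered above the 25th percentile of mean intensity (162.92). That left 19272 probes and 12938 genes, each gene shown by its probe of highest mean. Gene symbols came from the platform annotation and RefSeq.

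All 19 arrays entered 1 linear model with a mean for each group (lmFit, eBayes), p-values were 2-sided, and adjustment was by Benjamini-Hochberg over all probes. The number of arrays limits the precision. The labels do not say that arrays are separate animals, so p-values measure the spread between arrays, which may be technical. In the 51 gene lists, 219 genes had no tested probe. The lists, the named genes and the members were chosen with earlier results of these data known. Named were the 12 largest rises and falls among called genes (clones and predicted genes passed over), up to 4 called members each way per list by adjusted p, and Nppa, Nppb, Myh6, Myh7, Acta1, Atp2a2, Pln, Ppargc1a, Cdkn1a, Tnnt1, Hspa1a, Col1a1 and Esr1. Promoters were found for 10404 of the 12938 genes. The fitting was tested on simulated data. Alternatives tried were no background correction, an offset of 16, no filter or one at the 50th percentile, the 7 arrays alone, array weights, 1 probe per gene, variances that were trended and robust, blocking on the replicate number, a 2-fold threshold, and leaving out each array. The replicate numbers did not pair the arrays (correlations of deviations -0.00, -0.03 and 0.04). Figures used matplotlib.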

Additional observations from a re-analysis of the deposited data

Results flagged for a closer look

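Some values within a group of 4 or 5 arrays lay far from the rest, by the gap to the nearest array divided by the range of the group. In the day 2 group the array farthest out was replicate 3 for Ppm1k (0.906), Atp2a2 (1), Sesn1 (0.87), Bid (0.903), Lgals3 (0.889), Ccn1 (0.932), Ankrd2 (0.8995), Pfkfb2 (0.861) and Ulk1 (0.984), and for the first and second principal components (0.854 and 0.921). It was replicate 2 for Egr1 (0.8291), Lrrc10 (0.869), Ccl7 (0.833) and Nr2f1 (0.894), and replicate 4 for Clu (0.862). Among the controls, control 4 was farthest out for Fos (0.814), Egr1 (0.84), Egr2 (0.897), Junb (0.948), Cxcl1 (0.834) and Nfkbiz (0.78), and by the same measure also for Tnc, Hspa2 and Ccn1. In all, 12 of the 234 named genes were marked in the controls (5.13%), 9 of them in control 4. Among the day 28 arrays, replicate 2 was farthest out for Tnfrsf22 (0.871).

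Chance alone marks about 1 in 20 groups in this way. In the day 2 group 14 of the 234 named genes were marked (5.98%), against 752 of all 12938 genes tested (5.81%) and 161 of the 2587 genes called (6.22%). Of those 161, replicate 3 was the array farthest out in 83, against 217 of the 752.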

How the results depend on the processing

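With all arrays 3612 probes were called, 1685 higher and 1927 lower. Array weights gave 5669, 2622 and 3047, and a 2-fold threshold 699, 418 and 281. With the 7 arrays fitted alone 1101 were higher. Leaving out 1 array gave 2241 to 3924 probes in all, 1068 to 1831 higher and 1173 to 2093 lower, the lowest counts without day 3 replicate 2. With the replicate number as a block, 3456 probes were called (1602 higher, 1854 lower). The cause of these differences was not tested. No named gene that was called changed direction. Of the named genes, 38 lost their call with the 7 arrays alone, 14 with an offset of 16, 12 with trended and robust variances, 11 with the block, 9 without background correction, 6 without a filter and 3 with array weights, and 110 with a 2-fold threshold. Without day 3 replicate 2, 60 of the 234 lost it, without replicate 3 of that day 36 and without replicate 1 14. Without day 2 replicates 1 to 4 the numbers were 30, 31, 5 and 33. Dim genes near the background are understated in fold, bright ones are compressed, and no detection calls were used.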

Other observations

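Several genes outside the lists, chosen after their values were seen and given without a test of any family, had changes as clear as those above. Zfand2a, a heat- and arsenite-inducible regulator of protein disposal, rose by 2.17 ± 0.16 (adjusted p = 9.57e-09 in limma), with 11.68, 11.73 and 11.62 at day 3. Ppp1r15a, which restarts translation after stress, rose by 2.35 ± 0.30, the early response gene Csrnp1 by 2.45 ± 0.35, the heme carrier Hpx by 2.40 ± 0.20 and the tubulin Tubb6 by 2.06 ± 0.23. Picked from among the lower genes were some of the intercalated disc and membrane: Cdh2 (-1.37 ± 0.19, called in 2 of 4 probes), Ctnna1 (-1.28 ± 0.16), Pkp2 (-1.21 ± 0.16), Ank2 (-1.25 ± 0.21, called in 2 of 3 probes) and Popdc2 (-1.75 ± 0.17). No list of disc and membrane genes was drawn up, so the share of them that fell is not known.

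Families taken by symbol, also after the fact, can be set against 9.30% higher and 10.7% lower over all genes. Of 13 tubulins tested, 6 were higher and 1 lower (median 0.35). Of 71 mitochondrial ribosomal proteins, 1 was higher and 17 lower (median -0.16), in contrast in direction to the cytosolic ribosomal proteins. The cytosolic count depended on the arrays, as given above, and the mitochondrial count was made in the main fit only. Of 227 genes with a Zfp symbol, mostly zinc finger factors, 6 were higher and 44 lower (median -0.15). Of 36 mitochondrial carriers of the Slc25 family, 4 were higher and 9 lower.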
